A study of Mus musculus with 12 samples.

Results

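Circular RNAs of DNA repair genes were examined in mouse liver. A circular RNA (circRNA, or circle) is a closed loop in which splicing joins the far end of an exon to the near end of that exon or of one upstream. Reads that span this back-splice junction measure it. The members were chosen by host gene: every circle that lies inside a protein-coding gene of the GENCODE M21 annotation, has at least 1 end on an exon boundary of it, and whose host is named as a Rad, Xrcc, Ercc, Msh, Mlh, Pms, Brca or Parp gene with a number, as Fanca to Fancm, as Pole, Polh, Poli, Polk, Poln or Polq, or as Atm, Atr, Blm, Wrn or Palb2. This gave 124 of the 16445 circles in the table. They came from 40 of the 80 genes whose name fits (50.0%), while 4689 of all 21951 protein-coding genes (21.4%) hosted a circle. These shares were not matched for expression or exon number, and the second also counts hosts of circles with no end on a boundary. No member had a second possible host, 120 had both ends on exon boundaries, and 4 had 1 end there.

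The libraries came from livers of separate mice whose strain is given as C57BL/8. The 6 PZH mice received carbon tetrachloride (CCl4), a liver toxin, together with Pien Tze Huang (PZH), a medicine of Chinese tradition, at 25 mg/ml daily between week 2 and week 8. The 6 Control mice received CCl4 without PZH. CCl4 was a 10% preparation injected in both groups 2 times a week, 10 µl for each 10 g of body weight, with harvest in week 8. Liver that had no toxin was not analysed here, so each comparison is of PZH on top of the toxin with the toxin alone. Levels are in SRPBM, a depth-scaled signal of spliced reads at 1 junction, so the length of a circle does not enter.

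DNA repair is the work of several pathways, and each gene is counted here under a single one. Homologous recombination copies a broken stretch from the sister chromatid, end joining seals broken ends directly, mismatch repair corrects replication errors, nucleotide excision removes bulky lesions, and the Fanconi anaemia pathway unhooks crosslinked strands. CCl4 is turned into reactive radicals by liver cytochromes, and dying hepatocytes are then replaced by division of the survivors. A circle carries exons of its host's message but lacks both of its ends, and its level does not measure the repair protein.

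The junction is what defines each molecule, so the junctions of the circles that the comparisons below turn on are shown first. Each sequence is read in the direction of the gene and comes from the GENCODE M21 transcripts (GRCm38). The 15 lower-case bases end the last exon of the circle, and the 15 capitals begin its first exon, to which that end is joined. Coordinates are 1-based.
Rad52 exons 10 to 11, chr6:119920110-119921028, plus strand: ttctaggtagcagagCAGTACTTCCAGCCC
Fancl exons 2 to 7, chr11:26397746-26434500, plus strand: tcctggacaccacagGGAAGTGACTTTCAC
Rad23b exons 2 to 3, chr4:55366777-55368124, plus strand: gttatggtgacaaaaGTAAAGGCATTGAAA
Rad23b exons 2 to 4, chr4:55366777-55370472, plus strand: agcaccagctgacagGTAAAGGCATTGAAA
Xrcc4 exons 5 to 6, chr13:89991073-89992606, minus strand: ctgtgcaggctgcagATTTGAGAAATGTGT
Xrcc4 exons 4 to 6, chr13:89991073-90001084, minus strand: ctgtgcaggctgcagTTCAGACTTGGTTCC
Rad54l2 exons 5 to 7, chr9:106717749-106719724, minus strand: cttgccattgtgccgAGGAAATTGTCTTAC
Ercc6 exon 5, chr14:32526149-32526878, plus strand: taagcagcggttaagAGCCAGGGCCATCAT
The Rad23b circles share their capitals, because both begin at exon 2 and differ in the exon whose end is joined to it. The Xrcc4 circles share their lower-case bases, because both end with exon 6 and differ in the exon that follows it around the loop. Ercc6 exon 5 is a single exon of 730 bases whose own end is joined to its own start.

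Most repair circles were rare. Of the 124 members, 48 (38.7%) were above 0 in a single library, against 7262 of all circles (44.2%). Another 46 were above 0 in 2 to 5 libraries, 30 (24.2%) in at least 6, and 5 (4.03%) in all 12. Of all circles, 23.5% reached 6 libraries and 6.62% reached all 12. In PZH libraries alone 36 members (29.0%) were above 0 and in Control libraries alone 25 (20.2%). Of all circles, 27.7% were above 0 in PZH alone and 25.4% in Control alone. Single-library circles made up 27 of the 36 in PZH and 21 of the 25 in Control.

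**Figure D1:**
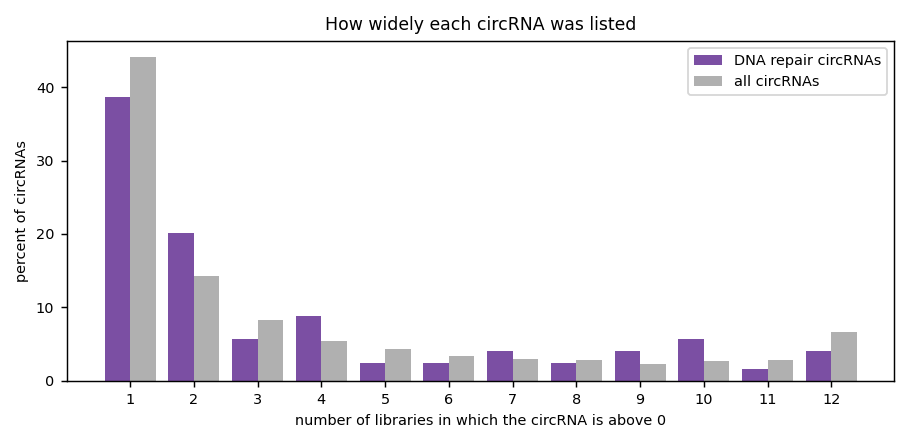
Share of circRNAs (y axis, percent) by the number of libraries in which they are above 0 (x axis), for the 124 DNA repair circles and for all 16445 circles. Both fall off steeply from the single-library class, which holds 38.7% of repair circles and 44.2% of all circles.

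The circles were spread unevenly over the genes. Msh3 and Pms1, both of mismatch repair, hosted 11 each. Brca2, Rad52 and Rad54l2 hosted 7 each, Wrn, a RecQ helicase, 6, and Rad23b and Xrcc6 5 each. No circle was listed for Brca1, Atr, Fanca, Fancd2, Fanci, Msh6, Pms2, Pole, Polq or Parp2. In structure the members were like other circles: the median was 3 exons for repair circles and for all circles, the median exonic length was 431 bases against 417 bases, and 26.1% of repair circles began at exon 2 against 25.6% of all. Fewer lay wholly in coding sequence (78.2% against 86.9%). Among those wholly coding, the exonic length was a multiple of 3 for 43 of 93 repair circles (46.2%), against 38.3% of all. Junction ends were often used more than once, and 82 of the 124 members shared a start or an end with another member. These shares are descriptions without a test.

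Summed over all members, the repair signal was 398.9 ± 31.7 SRPBM in PZH livers, against 383.8 ± 57.7 SRPBM in Control livers (SD, n = 6 for both), or 1.10 ± 0.047% of all junction signal in PZH and 1.09 ± 0.103% in Control. PZH libraries listed 40.2 ± 6.79 repair circles above 0 and Control libraries 35.2 ± 4.75. A single circle, Rad52 exons 10 to 11, made up 53.5 ± 4.05% of the repair signal in PZH and 60.3 ± 2.65% in Control. Over only the members above 0 in all 12 libraries, the mean sum was 274.7 SRPBM in PZH (234 to 294) and 279.4 in Control (237 to 336), which turns the sign of the difference. Without the Rad52 circle the sum over all others was 185 ± 20.2 SRPBM in PZH, from 153 to 214, and 153 ± 27.9 SRPBM in Control, from 120 to 195, so the groups overlapped.

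**Figure D2:**
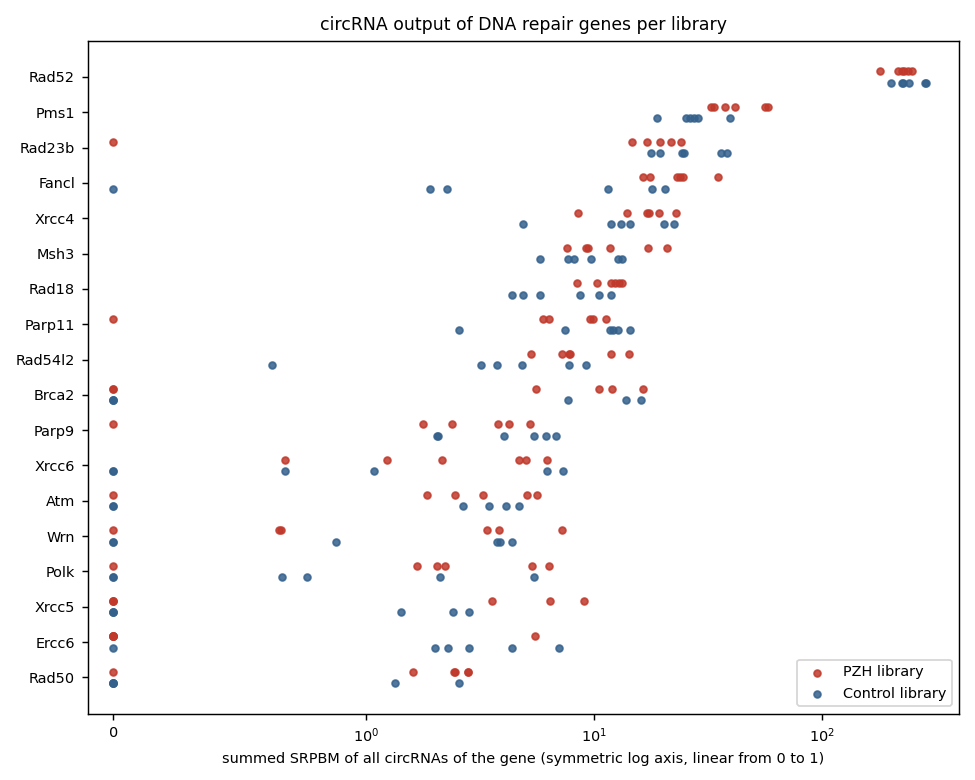
Summed level of all circles of a gene in SRPBM (x axis, symmetric log scale, linear between 0 and 1) for the DNA repair genes with the highest sums (y axis); points are libraries, PZH and Control. Rad52 stands at 179 to 247 in PZH and 200 to 284 in Control, above Pms1 at 32.7 to 57.6 in PZH and 18.8 to 39.4 in Control. The remaining genes have lower means, but Rad23b (17.7 to 38.4 in Control) and Fancl (16.4 to 35.0 in PZH) reach into the Pms1 range.

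Total junction signal was 31472 to 41080 SRPBM in PZH and 28922 to 40927 SRPBM in Control, the number of circles listed above 0 was 4439 to 5510 in PZH and 3735 to 5500 in Control, the smallest value listed was 0.584 to 0.719 SRPBM, and log2 values of libraries correlated at 0.826 to 0.887 over 1089 circles. Of the hepatocyte marker genes, 14 of 15 hosted circles, summing to 481 to 613 SRPBM in PZH and 413 to 652 in Control. Of 7 stellate cell markers only Reln hosted circles, at 4.12 to 11.7 SRPBM in PZH and 0 to 3.32 in Control. These ranges of a single host did not overlap, and how often host sums do so over the whole table is not given here. Circles of 3 of 5 macrophage markers summed to 40.6 to 65.7 SRPBM in PZH and 34.0 to 54.1 in Control. Those of 4 of 5 endothelial markers summed to 0.686 to 10.1 in PZH and 1.99 to 7.70 in Control, and those of 2 of 5 proliferation markers to 0 to 7.30 in PZH and 0 to 4.72 in Control. Cholangiocyte and lymphocyte markers, with 1 host of 5 each, were at 0 in PZH and reached 1.80 and 2.52 in Control. Whether the cell mixture had a part in any difference below was not tested, and in bulk tissue fewer cells of a type cannot be told apart from less RNA per cell.

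PZH was compared with Control for each circle above 0 in at least 6 libraries, with limma on log2(SRPBM + 0.636) and Benjamini-Hochberg adjustment over all 3870 circles tested. No DNA repair circle passed the adjusted threshold of 0.05, and the smallest adjusted p was 0.363. The exact rank-sum test could not decide this. For Rad54l2 exons 5 to 7, with fully separated groups, it gave p 0.00216, the smallest that 6 against 6 libraries allow. The adjusted p there was 0.322, so no member could be called by this test. Of all circles tested, 2 were called higher in PZH (0.0517%) and 0 lower (0%). At an unadjusted p under 0.05, 4 of the 30 tested members were higher in PZH and 2 lower, where 4.55% of all circles were higher and 3% lower. Rad54l2, matched by its name but with another role, gave 1 of the 4 and 2 of the 30. Of the 30, 17 had a positive and 13 a negative log2 fold change. Of all 3870, 2100 were positive and 1770 negative. The median was 0.12 for the members and 0.06 for all circles. The members' median was -0.014 without Control replicate 2, 0.35 without Control replicate 5 and -0.11 over the 5 members above 0 in all 12 libraries, so its sign turned. Over all circles tested in these settings the median was -0.0086, 0.074 and 0.044, in the same order. The 94 members left out by the filter reached at most 6.47 SRPBM in any library.

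**Figure D3:**
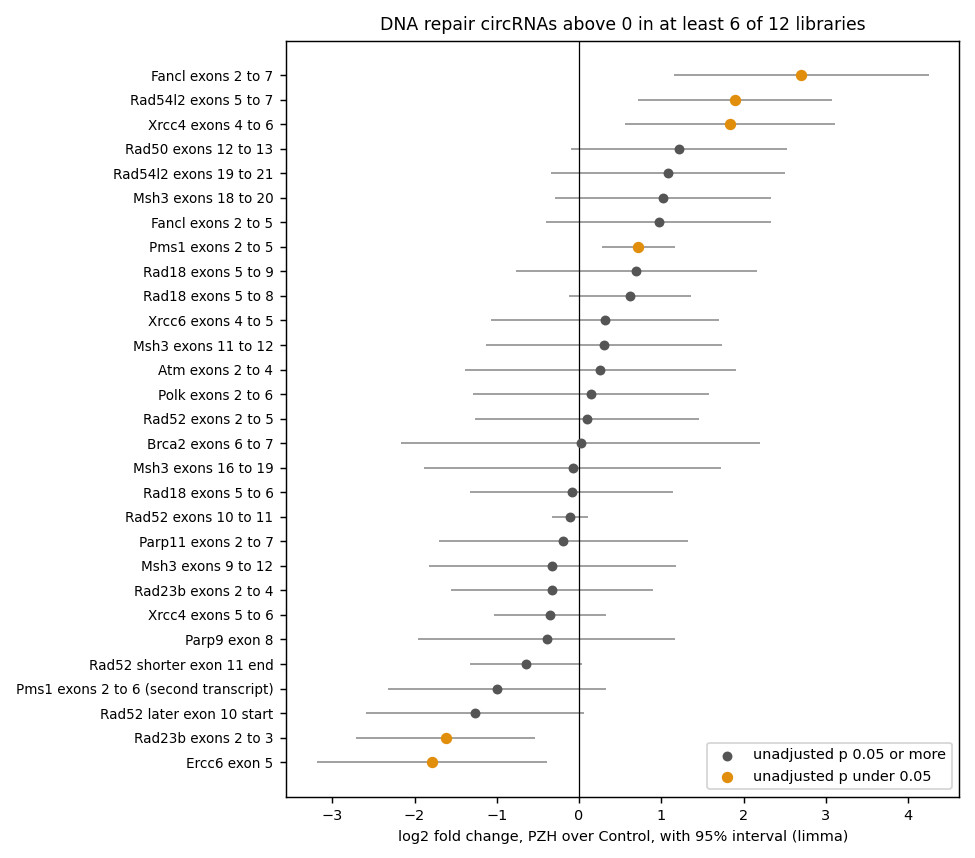
Log2 fold change of PZH over Control with its 95% interval from limma (x axis) for the tested DNA repair circles (y axis), apart from 1 that is not drawn. The intervals of 6 circles leave out 0, those of Fancl exons 2 to 7, Rad54l2 exons 5 to 7, Xrcc4 exons 4 to 6 and Pms1 exons 2 to 5 above it and those of Ercc6 exon 5 and Rad23b exons 2 to 3 below it, and none passes the adjusted threshold.

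Homologous recombination had 28 circles from 10 genes, of which 6 were tested, 3 with a positive and 3 with a negative fold change. Rad52, which anneals complementary single strands, had the most abundant of the 124 circles. Rad52 exons 10 to 11 ranked 10 among all circles of the table. It ranged from 169 to 237 SRPBM in PZH with a median of 218, and from 190 to 272 in Control with a median of 221. The groups overlapped over most of their range, with 214 ± 24.2 in PZH and 231 ± 32.7 in Control (n = 6 each, SD), a log2 fold change of -0.11 ± 0.11 (SE) and an adjusted p of 0.842. Its 95% interval ran from -0.33 to 0.11. The circle is 303 exonic bases long, a multiple of 3.

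A pair of further Rad52 circles used almost the same ends. One ends 9 bases earlier inside exon 11, and the other begins 3 bases later inside exon 10. The shifted positions are shown because they separate junctions that differ by a few bases, with the skipped bases in capitals.
Last bases of Rad52 exon 11: acaccaaccagcatgttctagGTAGCAGAG
First bases of Rad52 exon 10: CAGtacttccagcccctccaaaacacagca
The earlier end in exon 11 is followed by GT, and the later start in exon 10 follows AG, the letters found at ordinary splice sites. The other members with an end inside an exon, in Xrcc4 and Msh3, also lay next to AG. This was not particular to repair genes: all 197 such ends in the table (100%) lay next to AG or GT. Whether the program that called the circles required these letters is not known, so nothing is concluded from this share.

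The Rad52 circle with the earlier exon 11 end ranged from 3.52 to 8.86 SRPBM in PZH (median 4.31) and from 7.29 to 8.73 in Control (median 7.73). In PZH 5 of 6 libraries lay below the lowest Control library, and the remaining one lay above the highest. The log2 fold change was -0.65 ± 0.33 (SE), with an adjusted p of 0.658. The circle with the later exon 10 start was at 0 to 2.28 in PZH, above 0 in 3 libraries, and at 0.876 to 3.95 in Control (log2 fold change -1.26, adjusted p 0.659).

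Other recombination circles were low. Rad50 encodes the ATPase of the MRN complex that holds broken ends, and its exons 12 to 13 circle was above 0 in 5 PZH and 2 Control libraries, at up to 2.80 SRPBM in PZH and 2.56 in Control (log2 fold change 1.21, adjusted p 0.686). Brca2 is a mediator of strand exchange in this pathway. Its exons 6 to 7 circle was either listed at 0 or stood between 5.97 and 16.1 SRPBM, with 3 libraries of each group above 0 (log2 fold change 0.02 ± 1.05, adjusted p 0.998). Wrn had 6 circles, none above 0 in more than 4 libraries and none above 3.81 SRPBM. Blm, Palb2 and Rad54b had untested circles that did not exceed 3.35 SRPBM in any library.

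The checkpoint kinase Atm, which signals double-strand breaks, had 1 tested circle. Exons 2 to 4 ranged from 0 to 5.06 SRPBM in PZH and from 0 to 4.67 in Control, above 0 in 4 PZH and 3 Control libraries (log2 fold change 0.26, adjusted p 0.964). Rad17, which loads the checkpoint clamp, had circles of at most 2.41 SRPBM.

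The Fanconi anaemia pathway had 5 circles from 2 genes, and both that were tested had a positive fold change. Fancl encodes the ubiquitin ligase that marks Fancd2 and Fanci. Its exons 2 to 7 circle, 444 bases and a multiple of 3, was above 0 in all 6 PZH libraries, from 11.2 to 30.5 SRPBM with a median of 18.3. In Control it was listed at 0 in 3 libraries and stood at 9.49, 14.3 and 14.4 in the others. The groups overlapped, since PZH replicate 6 at 11.2 lay below 2 Control libraries. The log2 fold change was 2.70 ± 0.74 (SE), with an unadjusted p of 0.00156 and an adjusted p of 0.363, the smallest of the members. With the zeros taken as missing the difference was 0.52, and with no filter on low values the adjusted p was 7.07e-05, over a range of 7.07e-05 to 0.625 across 26 settings. Fancl exons 2 to 5, which starts at the same exon, was at 1.04 to 4.26 SRPBM in PZH and 0 to 6.11 in Control (log2 fold change 0.97, adjusted p 0.736). Fancc had 1 circle, above 0 in 2 libraries at 0.610 and 0.616 SRPBM.

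Mismatch repair had 28 circles from 4 genes. Pms1 encodes a MutL homologue, and its exons 2 to 5 circle was the second most abundant of the members, ranking 169 in the table. It lies at chr1:53256629-53282092 on the minus strand and begins in an exon that holds untranslated sequence, so no junction is shown. It ranged from 28.5 to 55.0 SRPBM in PZH with a median of 37.3, and from 13.9 to 35.6 in Control with a median of 23.6. In Control 5 of 6 libraries lay below the lowest PZH library, and Control replicate 3 lay within the PZH range. The means were 39.7 ± 10.6 in PZH and 24.0 ± 7.04 in Control (n = 6 each, SD), the log2 fold change was 0.72 ± 0.22 (SE), and the p was 0.00306 unadjusted and 0.408 adjusted. When only the 1089 circles above 0 in all 12 libraries were tested, the adjusted p was 0.0277, over a range of 0.0277 to 0.649 across 27 settings.

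The other mismatch repair circles were low. A second Pms1 circle, which ends with the same exon but begins further upstream in another transcript, was above 0 in 2 PZH and 5 Control libraries, up to 2.77 SRPBM in PZH and 3.65 in Control (PZH over Control 0.502 on the scale of the fit, adjusted p 0.727). Msh3 recognises larger mismatched loops, and its exons 18 to 20 circle stood at 1.61 to 5.38 SRPBM in PZH and 0 to 2.68 in Control (log2 fold change 1.02, adjusted p 0.710). Of the 7 tested circles of this pathway, 4 had a positive and 3 a negative fold change.

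Nucleotide excision repair had 12 circles from 6 genes. All 3 that were tested, a pair of Rad23b circles that share an end among them, had a negative log2 fold change, 2 with an unadjusted p under 0.05 where 3% of all circles were lower at that level. Rad23b encodes a partner that stabilises the damage sensor Xpc, and its exons 2 to 3 circle spans 162 exonic bases. It ranged from 0 to 10.7 SRPBM in PZH with a median of 6.59, and from 9.75 to 23.4 in Control with a median of 16.4. Only PZH replicates 5 and 6, at 10.6 and 10.7, overlapped the Control range, and PZH replicate 4 was listed at 0. The log2 fold change was -1.62 ± 0.52 (SE), with an unadjusted p of 0.00541 and an adjusted p of 0.454. Without PZH replicate 4 the log2 fold change was -1.01. The longer circle of exons 2 to 4 was at 0 to 15.2 SRPBM in PZH with a median of 10.0 and 3.84 to 12.4 in Control with a median of 9.78 (log2 fold change -0.33, adjusted p 0.932), and this sign turned without PZH replicate 4, to 0.35.

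Ercc6 encodes the Cockayne syndrome B protein, which acts where RNA polymerase stalls at damage. Its exon 5 circle was listed at 0 in 5 PZH libraries and stood at 3.02 SRPBM in PZH replicate 6. In Control it was above 0 in 5 libraries, between 2.00 and 7.04, and at 0 in the other. It was the only member above 0 in at least 5 libraries of one group and at most 1 of the other, out of 33 members above 0 in at least 5 libraries. Of all circles above 0 in at least 5 libraries, 0.546% had this pattern on the Control side and 0.982% on the PZH side. The log2 fold change was -1.79 ± 0.67 (SE), with an unadjusted p of 0.0146 and an adjusted p of 0.559. Ercc1, Ercc3, Ercc4 and Ercc5 each had 1 untested circle of at most 3.03 SRPBM.

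In end joining, Xrcc4 is the scaffold of DNA ligase IV. The exons 4 to 6 circle ranged from 4.16 to 13.1 SRPBM in PZH with a median of 7.01, and from 0 to 8.15 in Control with a median of 2.47, with 2 Control libraries at 0. The log2 fold change was 1.83 ± 0.61 (SE), the unadjusted p 0.00698 and the adjusted p 0.454, and the groups overlapped through Control replicate 2 at 8.15. The exons 5 to 6 circle was at 4.36 to 12.9 SRPBM in PZH and 4.85 to 18.7 in Control, with means of 8.67 ± 2.95 in PZH and 11.5 ± 4.54 in Control (n = 6 each, SD), a log2 fold change of -0.35 and an adjusted p of 0.835. Xrcc5 and Xrcc6 encode the Ku subunits that cap broken ends. The Xrcc5 exons 17 to 19 circle was the most abundant untested member, at 3.57 to 6.47 SRPBM in 3 PZH libraries, 2.40 and 0.941 in 2 Control libraries, and 0 in the rest.

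**Figure D4:**
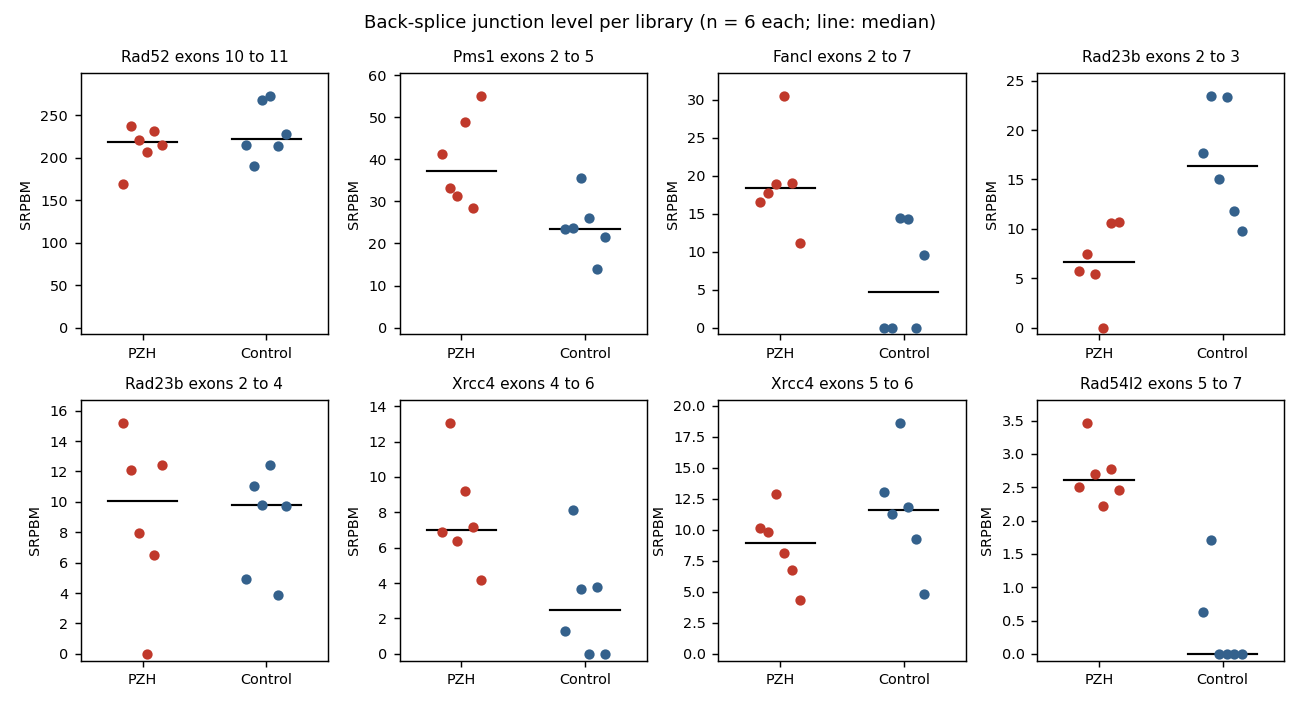
Level in SRPBM (y axis) of 8 DNA repair circles in each PZH and Control library (x axis; 6 libraries each, line at the median). The groups overlap for Rad52, Pms1, Fancl, Rad23b and Xrcc4, and do not for Rad54l2 exons 5 to 7, at 2.22 to 3.47 in PZH and 0 to 1.72 in Control.

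Of the 4 genes of single-strand break repair that the naming rule covers, 2 hosted a circle. Xrcc1, the scaffold of that pathway, had 1, of exons 13 to 16, listed at 0 in every PZH library and at 0.585 to 1.57 SRPBM in 4 Control libraries. This circle was in too few libraries to be tested, and 0.584 SRPBM was the smallest value listed in any library. Parp1, the main sensor of such breaks, had 1 circle in 1 PZH library at 2.50 SRPBM.

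Damage tolerance lets replication pass a lesion. Rad18, the ligase that ubiquitylates PCNA for this, had 3 circles that all begin at exon 5. The exons 5 to 8 circle was above 0 in every library, at 4.96 to 11.8 SRPBM in PZH (median 7.61) and 2.94 to 8.50 in Control (median 4.67). PZH averaged 7.73 ± 2.59 and Control 4.86 ± 1.95 (n = 6 each, SD), a log2 fold change of 0.62 ± 0.36 (SE) with an adjusted p of 0.705. The exons 5 to 9 and exons 5 to 6 circles had log2 fold changes of 0.70 and -0.09, with adjusted p of 0.848 and 0.982.

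Of the other ADP-ribosyltransferases, Parp11 had the highest circle. Exons 2 to 7 ranged from 0 to 11.3 SRPBM in PZH and from 0 to 12.1 in Control, with 5 libraries of each group above 0 (log2 fold change -0.19, adjusted p 0.974). Parp4, Parp6, Parp8 and Parp14 had 11 untested circles of at most 2.90 SRPBM.

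Rad54l2, which is matched by its name, encodes an androgen receptor-interacting helicase and not a recombination factor. Its exons 5 to 7 circle was the only tested member whose groups did not overlap, at 2.22 to 3.47 SRPBM in PZH with a median of 2.60, and at 0 to 1.72 in Control, where 4 libraries were at 0. These levels are low, since the smallest value listed in a library was 0.584 to 0.719 SRPBM. Of all tested circles, 0.491% had every PZH library above every Control library, and 0.181% the reverse. The log2 fold change was 1.90 ± 0.57 (SE), with an unadjusted p of 0.00302 and an adjusted p of 0.408. Rad54l2 exons 19 to 21 was at 1.06 to 11.1 SRPBM in PZH and 0 to 6.99 in Control (log2 fold change 1.08, adjusted p 0.721).

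Summing the circles of each host gene gave 2203 testable genes, of which 0 were called (0%). At an unadjusted p under 0.05, 5.08% of all sums were higher in PZH and 3.13% lower. Among 19 repair genes, 14 had a positive and 5 a negative fold change. The split over all host sums is not given here, so this is not read as a shift towards PZH. At an unadjusted p under 0.05, 2 of the 19 were higher in PZH and 1 was lower. These were Fancl (log2 fold change 2.14, adjusted p 0.263) and Pms1, with 43.1 ± 11.1 SRPBM in PZH and 27.6 ± 6.73 in Control (log2 fold change 0.63, adjusted p 0.375), on the higher side. Ercc6 was on the lower side (log2 fold change -1.67, adjusted p 0.557). Rad54l2 and Rad50 had log2 fold changes of 1.00 and 1.21, Rad23b -1.24, and Parp11 -0.74. Without PZH replicate 4, in which both sums were 0, the Rad23b sum was at -0.41 and the Parp11 sum at -0.10, and without Control replicate 1 the Rad54l2 sum was at 0.63. The Rad52 sum was 221.8 ± 23.7 SRPBM in PZH and 243.2 ± 33.8 in Control (log2 fold change -0.13, adjusted p 0.766).

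For circles of a gene that share one end, the ratio within a library does not depend on scaling between libraries. The 10 tested pairs of this kind, in 7 repair genes, were compared by exact permutation over every way of assigning the libraries that gave a share: 924 ways for 6 pairs, 462 for 3 and 210 for 1. None passed adjustment over all 1873 such pairs, of which 0 were called (0%), and 3 of 10 had an unadjusted p under 0.05, against 6.83% of all pairs. With at most 924 ways, the exact p cannot get small enough for a single pair to pass that adjustment. The absence of calls is therefore not read as equal ratios. Of the joint signal of both Xrcc4 circles, exons 5 to 6 held 52.6 ± 8.94% in PZH (42.9 to 66.9%) and 84.0 ± 16.8% in Control (58.1 to 100%; n = 6 each, SD), an exact 2-sided p of 0.00649 and an adjusted p of 0.591. Rad23b exons 2 to 3 held 42.8 ± 12.6% of its pair in 5 PZH libraries and 66.3 ± 10.3% in 6 Control libraries, an exact p of 0.0130 and an adjusted p of 0.591. PZH replicate 4, where both Rad23b circles were at 0, gave no share. The earlier Rad52 exon 11 end held 2.30 ± 0.790% in PZH and 3.33 ± 0.216% in Control (n = 6 each, SD), an exact p of 0.0152 and an adjusted p of 0.591. The other pairs had exact p of 0.0714 to 0.643.

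**Figure D5:**
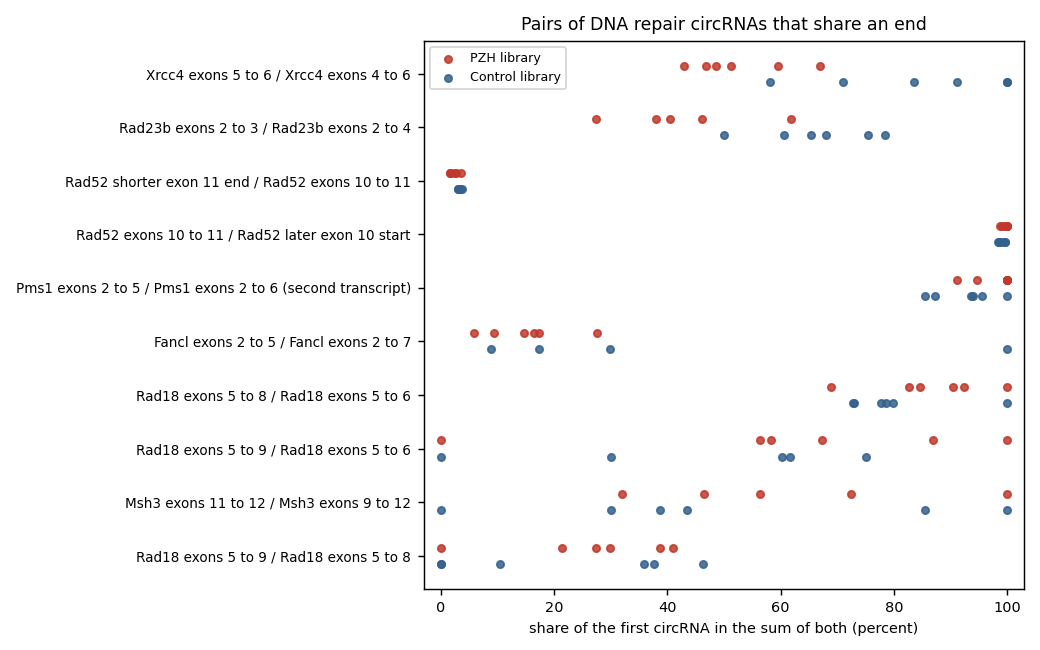
Share of the first-named circle in the summed level of a pair that shares an end (x axis, percent), by library, for the 10 tested pairs of DNA repair circles (y axis), with PZH and Control points. For the Xrcc4 pair the share lies at 42.9 to 66.9% in PZH and 58.1 to 100% in Control.

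Entries at 0 touched several of these results. Among circles above 0 in at least 6 libraries whose median where above 0 was at least 5 SRPBM, 8 of 13 repair circles (61.5%) were listed at 0 somewhere, against 498 of 1393 in the table (35.8%). The 8 include Fancl exons 2 to 7, both Rad23b circles, Xrcc4 exons 4 to 6, Brca2 exons 6 to 7 and Parp11 exons 2 to 7. The choice of 5 SRPBM sets their values where above 0, and whether the molecule was absent from a library listed at 0 was not tested.

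A list of 147 further DNA repair genes, which the naming rule does not cover, had 218 circles from 56 hosts, and 47 were tested. Of these 26 had a positive and 21 a negative fold change with a median of 0.04, 1 was higher and 2 lower at an unadjusted p under 0.05, and the smallest adjusted p was 0.566. The most abundant, Rnf169 exons 2 to 4, a circle of a ligase that acts at breaks, ranked 3 in the table, above Rad52, with 612 ± 50.7 SRPBM in PZH and 590 ± 70.3 in Control (n = 6 each, SD; log2 fold change 0.06, adjusted p 0.898). Rev1, a polymerase scaffold of damage tolerance, had an exons 2 to 3 circle at 41.8 ± 7.88 SRPBM in PZH and 54.2 ± 7.15 in Control (n = 6 each, SD; log2 fold change -0.38, adjusted p 0.566). Rnf168, a ligase that marks histones at breaks, had an exons 2 to 4 circle at 0 to 2.89 SRPBM in PZH and 1.89 to 4.56 in Control (log2 fold change -1.62, adjusted p 0.566). Ino80 exons 6 to 8 was at 0 to 5.25 SRPBM in PZH and 0 to 7.94 in Control (log2 fold change -1.34). On the higher side, Uimc1 exons 7 to 8 was at 0 to 2.38 SRPBM in PZH and 0 to 1.53 in Control (log2 fold change 1.33), and the Cdk12 circles of exons 3 to 6 and 7 to 9 had log2 fold changes of 1.04 and 0.89.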

How the data were processed

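Total liver RNA of 12 mice was sequenced, 6 PZH and 6 Control, and the authors deposited 1 table of back-splice junctions by library. Its values are a signal in SRPBM, as the deposited table names them, a name that usually stands for junction reads scaled by mapped depth. Trim Galore and STAR were used with GRCm38, per the submitters' processing notes; which program called the circRNAs, with which filters and formula, is not given in the sources used here. Depth is known only through the table, and no interval for counting error is given.

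Host genes, strand and exon numbers were assigned here from GENCODE M21 (GRCm38). Junction sequences were read from its transcripts, up to 15 bases on each side. CircRNAs above 0 in at least 6 libraries were tested with limma 3.58.1 (R 4.3.3, variance trend, 2-sided, Benjamini-Hochberg, threshold 0.05) on log2(SRPBM + 0.636), the pseudocount being the median of the libraries' smallest values. On this scale the pseudocount shrinks the fold change of a low circRNA, while entries at 0 can make it larger than the ratio of the means. Host gene sums were tested alike. Exact permutation tests used numpy 2.4.6, and their adjustment used scipy 1.17.1. Tables and plots used Python 3.11.15, numpy 2.4.6, pandas 2.3.3 and matplotlib 3.10.9.

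Members and lists were chosen with earlier results of these data known. CircRNAs were named by a rule: the 10 with the highest mean, the 8 with the smallest p on each side, the most abundant of each pathway, those above 0 in at least 5 libraries of a group and at most 1 of the other, and partners sharing an end; host sums, the 4 with the smallest p on each side; further repair genes, 3 on each side. The comparison of shared ends, the ends inside exons, the description of zeros and untested circles named singly were chosen after values were seen. Replicate numbers in the labels were not treated as pairs. Alternatives were other pseudocounts, filters, scalings, no trend, library weights, a replicate block, zeros as missing, leaving out each library and a rank-sum test. Some members are counted in the totals but not reported here one by one.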

Additional observations from a re-analysis of the deposited data

Results flagged for a closer look

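Of 66 groups of 6 libraries, 6 held 1 library set apart from the others by its gap relative to the group's range; chance sets apart about 1 in 20 groups of normally distributed values, and groups with many libraries at 0 depart from that. The Ercc6 sum includes the Ercc6 exon 5 circle. For Rad54l2 exons 5 to 7, Control replicate 2 stood at 1.72 SRPBM with the other Control libraries at 0 to 0.629. For Ercc6 exon 5, PZH replicate 6 stood at 3.02 SRPBM with the others at 0, and the summed Ercc6 circles of that library were at 5.48 SRPBM with the others at 0. For Rad18 exons 5 to 8, Control replicate 4 stood at 8.50 SRPBM with the others at 2.94 to 4.86. For Fancl exons 2 to 5, PZH replicate 1 stood low at 1.04 SRPBM with the others at 3.07 to 4.26, and Control replicate 3 stood high at 6.11 SRPBM with the others at 0 to 2.27.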

How the results depend on the processing

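Over the table, the counts of circRNAs called higher and lower in PZH were 2 and 0; they were 19 and 11 with no filter, 8 and 2 with circRNAs above 0 in all 12 libraries, and 7 and 5 with zeros as missing. The lower count was 2 at a pseudocount of 5 and 3 with at least 3 libraries above 0, the higher count was 1 with the replicate block and 0 by the exact rank-sum test, and leaving out 1 library gave 1 higher each time and 0 to 2 lower (2 without PZH replicate 5, 1 without PZH replicate 1 or 3 or Control replicate 1). By rank-sum no p can fall below 0.00216, so nothing is read from its count of 0. The count of called repair circles, 0, was 1 with no filter and 1 in circRNAs above 0 in all 12 libraries. Repair circles with an unadjusted p under 0.05, 4 higher and 2 lower, were 1 and 1 in circRNAs above 0 in all 12 libraries. The lower count was 4 without the variance trend and 1 by rank-sum, the higher count 2 with zeros as missing, and leaving out 1 library gave 4 to 5 higher and 1 to 4 lower (4 without PZH replicate 5, 1 without PZH replicate 6 or Control replicate 3, 4 or 6). The cause was not tested.

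Settings were compared circle by circle for the 22 tested circles that the rule names, and signs turned for 6 of them, whose adjusted p as reported was 0.727 or more. Of the 8 not named, compared by rank-sum alone, Msh3 exons 16 to 19 turned, at -0.08 in limma and 3 above the expected rank sum. With zeros as missing, Pms1 exons 2 to 6 (second transcript) was at 0.13, Rad23b exons 2 to 4 at 0.35 and Atm exons 2 to 4 at -0.33. By rank-sum, Rad23b exons 2 to 4 was 3 above and Brca2 exons 6 to 7 0.5 below the expected rank sum (-0.5). Brca2 exons 6 to 7 was at -0.015 under median-of-ratios scaling, -0.013 under scaling to the same sum and -0.14 with library weights. Leaving out 1 library, the ranges were -0.57 to 0.35 for Rad23b exons 2 to 4, -0.033 to 0.60 for Atm, -0.85 to 0.42 for Parp11 exons 2 to 7, -0.37 to 0.18 for Rad18 exons 5 to 6 and -0.39 to 0.44 for Brca2. Same-numbered libraries did not deviate together (correlations -0.12 to 0.03), so the block is not read as a pairing; under it the smallest adjusted p of a repair circle was 0.367. Low values limit most of these circles: 25 of 30 tested had a library listed at 0.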
